A study of Mus musculus with 80 samples.

Results

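The dopamine receptor genes Drd1, Drd2 and Drd3 were followed through 80 single cells sorted from the dorsomedial striatum of adult mice. They were taken by their symbols from the table of TPM (a transcript level scaled per gene length and to a fixed total per cell), in which 2 of the 3 genes, Drd1 and Drd2, had a row among 25160 genes, and Drd3 was not analysed here. The related receptor Drd5 was read beside them. The mice were heterozygous for 2 reporter transgenes, Drd1a-TdTomato and Drd2-EGFP (strain Drd1a-TdTomatohet;Drd2-EGFPhet), each a bacterial artificial chromosome in which regulatory DNA of the receptor gene drives a fluorescent protein, so all 80 cells carried both. Cells were sorted by FACS into 96-well plates on either colour, giving 40 Drd1a-TdTomato and 40 Drd2-EGFP cells, and cDNA of each cell was made with a SMARTer kit and sequenced. Per the study's methods, the region was marked in the anaesthetised mice by an injection of India ink with a Hoechst nuclear dye before the tissue was taken, which applies to either group. The labels name plate, well and fluorescence of a cell but no animal, so each group was taken as 1 sample, every spread is over cells, and no test was made. Because the sort used reporters of these 2 genes, the difference of Drd1 or Drd2 between the groups was set in part by the sort and is given as a description.

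D1 receptors couple to stimulatory G proteins (Gs and, in striatum, Golf) and raise cAMP, whereas D2 and D3 receptors couple to inhibitory G proteins (Gi and Go) and lower it. Medium spiny neurons (MSN), the GABAergic projection neurons of the striatum, fall into D1 MSN of the direct pathway and D2 MSN of the indirect pathway. Cholinergic interneurons also carry D2 receptors, together with D5, the other Gs-coupled dopamine receptor.

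Of the Drd2-EGFP cells, 2 had the acetylcholine-synthesizing enzyme Chat at more than 100 TPM (347 and 307 TPM, both on plate FACS051_5) and are called cholinergic interneurons here, which leaves 38 D2 MSN. The 40 Drd1a-TdTomato cells are called D1 MSN after their label, although 2 of them, described next, went against it. The 8 MSN markers (Ppp1r1b, Bcl11b, Pde10a, Rgs9, Gad1, Gad2, Foxp1 and Meis2) each passed 1 TPM in 50% or more of the cells of either subtype, and their summed level had medians of 3311 and 3814 TPM in D1 and D2 MSN. On plate FACS051_5, the cell in well D04 had the astrocyte enzyme Aldoc at 10427 TPM and the astrocyte gap junction gene Gja1 at 989 TPM, beside a summed MSN marker level of 109 TPM. The cell in well B02 of plate FACS086_4 had 648 genes above 1 TPM and a summed MSN marker level of 4.21 TPM. Both were kept among the 40, and values without them are given for Drd1, for co-detection and for the signalling genes. The study gives a median depth over its cells and states that not every cell gave usable data, without naming those that did not. All cells were kept here. Read counts cannot be had from TPM, which leaves the depth of each cell unknown, and a cell without a measured transcript is said to be listed at 0. The number of genes above 1 TPM, called genes found, lay between 648 and 8657 in D1 MSN and between 1215 and 7942 in D2 MSN, and no pair of cells held equal values.

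The promoters of both genes are shown because the reporters that placed each cell in its group are driven by regulatory DNA of these genes. Drd1 lies on the minus strand of chromosome 13 (GRCm38, 54051183 to 54055705) with 2 exons, of which exon 2 holds the whole coding sequence of 1338 bases in transcript Drd1-201. Drd2 lies on the plus strand of chromosome 9 (49340627 to 49408177) with 8 exons and a coding sequence of 1332 bases. Exon 6 of Drd2 (49403194 to 49403280, 87 bases) is the exon that separates the long from the short receptor isoform, and the TPM per gene do not tell them apart. The RefSeq sequences upstream of each gene (GRCm38.p6) are chr13:54055706-54055908 on the minus strand for Drd1, of 203 bases, and chr9:49340153-49340402 on the plus strand for Drd2, of 250 bases. The Drd1 window lies directly beside the gene start given above, 54055705. The Drd2 window ends at 49340402, short of the start given above, 49340627, and the bases between were neither shown nor searched. Both sequences are written 5′ to 3′ along the gene, with GC boxes in capitals.
Drd1: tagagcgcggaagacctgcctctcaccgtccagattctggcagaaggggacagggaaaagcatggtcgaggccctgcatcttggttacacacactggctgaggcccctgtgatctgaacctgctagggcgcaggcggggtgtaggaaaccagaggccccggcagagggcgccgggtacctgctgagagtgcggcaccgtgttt
Drd2: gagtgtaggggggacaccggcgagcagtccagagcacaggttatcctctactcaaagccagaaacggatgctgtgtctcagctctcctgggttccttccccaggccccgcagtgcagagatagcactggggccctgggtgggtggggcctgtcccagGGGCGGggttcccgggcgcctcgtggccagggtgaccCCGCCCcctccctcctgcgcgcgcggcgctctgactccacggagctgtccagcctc
Both windows were rich in G and C, with 62.6% for Drd1 and 68.8% for Drd2, beside medians of 51.7% and 52.4% over 32851 mouse promoters cut to the same lengths. The TATA box was searched as the letters TATAAA and the CCAAT box by its own letters, on both strands. The GC box was searched as GGGCGG and the cAMP response element as TGACGTCA. None of these 4 motifs was found in the Drd1 window, and the Drd2 window held 2 GC boxes, 1 on each strand and not overlapping. A GC box was present in 25.2% of all promoters at the length of the Drd1 window and in 32.7% at that of the Drd2 window. The cAMP response element was present in 0.855% and 1.55%, the TATA box in 9.27% and 12.4%, and the CCAAT box in 28.9% and 33.8%.

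Drd1 was found in nearly every D1 MSN and at a high level. Its TPM ran from 0 over a median of 180 to 501, with a mean of 195 ± 124 (SD over cells, n = 40). More than 1 TPM was found in 38 of 40 D1 MSN (95.0%, exact Clopper-Pearson 95% interval 83.1% to 99.4%, which covers counting error only). Levels fell into separate ranges, with 36 cells between 53.7 and 501 TPM, 4 cells at 4.02 TPM or less, and no cell in between. On plate FACS051_5 the mean was 217 ± 155 TPM (SD, n = 18), on FACS086_4 it was 177 ± 93.3 TPM (SD, n = 21), and the only D1 MSN of FACS086_9 had 167 TPM. The plates thus differed by less than the spread among cells of either. Without the cells in D04 and B02, the mean was 205 ± 118 TPM (SD, n = 38) and 37 of 38 cells (97.4%) were above 1 TPM.

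The 4 D1 MSN low in Drd1 were not alike in the other D1 markers. The cell in B07 of FACS051_5, listed at 0 for Drd1, had the neuropeptide precursors Pdyn at 366 TPM and Tac1 at 222 TPM, the transporter-like gene Slc35d3 at 221 TPM and 4119 genes found. The cell in B12 of the same plate had Drd1 at 4.02 TPM, Tac1 at 357 TPM and the transcription factor Isl1 at 200 TPM. Its Pdyn was at 0.169 TPM and its Slc35d3 at 0.152 TPM. The cells in B07 and B12 thus carried some D1 markers at levels within the range of the other D1 MSN. The other two were those that went against the label. The cell in D04 had Drd1 at 2.03 TPM, Tac1 at 1.38 TPM and the lowest TdTomato fluorescence of its group (1001 arbitrary units). It had 2 of the 6 D1 markers above 1 TPM, and the other of these, Sfxn1, was at 280 TPM, above the highest D2 MSN (219 TPM). The cell in B02 was listed at 0 for Drd1 and had 1 of the 6 D1 markers above 1 TPM (Ebf1, 1.20 TPM).

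Drd2 was lower and more often listed at 0 in its own subtype. In D2 MSN its TPM ran from 0 over a median of 18.2 to 459, with a mean of 50.0 ± 89.6 (SD over cells, n = 38). It was above 1 TPM in 26 of 38 cells (68.4%, 51.3% to 82.5%), and 11 cells were listed at 0. No separate ranges like those of Drd1 were seen, since 12 cells lay between 5 and 50 TPM and 12 above 50 TPM. The SD divided by the mean was 1.79 for Drd2, against 0.635 for Drd1 in D1 MSN. This gap rested on FACS086_4, since on FACS051_5 the ratios were 0.882 and 0.713, and the SD of log2(TPM + 1) there was 2.26 for Drd2 and 2.65 for Drd1. The cell in A02 of plate FACS086_4 alone held 24.2% of the summed Drd2 of the D2 MSN, the next cell (B09, same plate) was at 306 TPM, and the highest of the others was at 132 TPM.

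The share of D2 MSN with Drd2 varied between plates. On FACS051_5, 14 of 16 D2 MSN (87.5%) were above 1 TPM, with a mean of 45.4 ± 40.0 TPM (SD). On FACS086_4, 12 of 19 (63.2%) were above 1 TPM, with a mean of 61.8 ± 121 TPM (SD), and all 3 D2 MSN of FACS086_9 were listed at 0. The exact intervals of the shares on the 2 large plates overlapped (61.7% to 98.4% and 38.4% to 83.7%). The 3 cells of FACS086_9 had EGFP fluorescence of 861, 1519 and 1699, within the range of the other D2 MSN (502 to 1765), and their genes found were 3414, 1215 and 4059. The study's methods name as many animals as there are plates but do not tie one to the other, so plate and animal cannot be told apart.

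**Figure D1:**
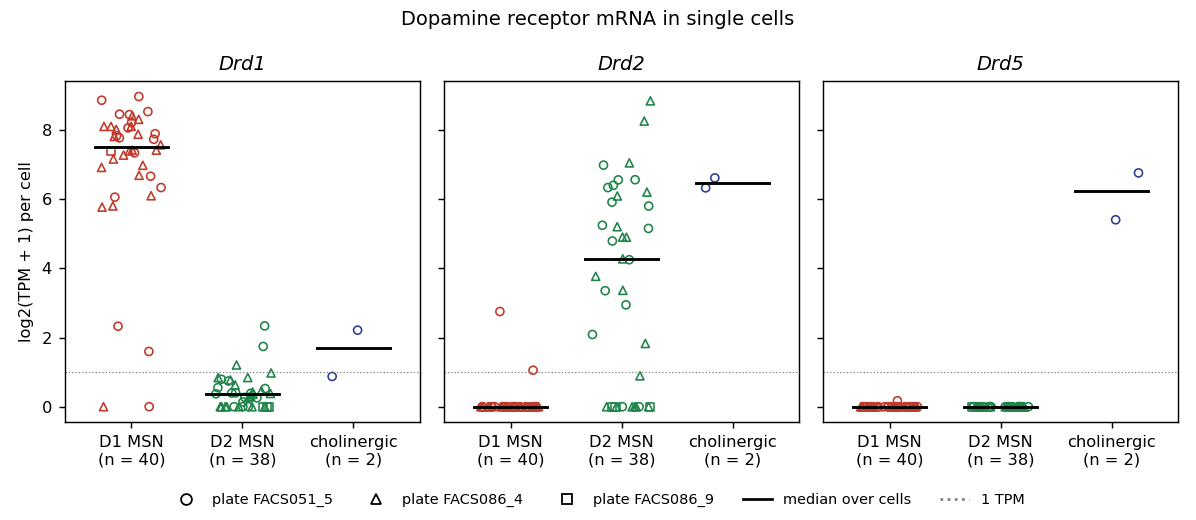
Levels of Drd1, Drd2 and Drd5, as log2(TPM + 1) on the y axis, in each of 40 D1 MSN, 38 D2 MSN and 2 cholinergic interneurons; each point is a cell, its shape gives the plate, black bars are medians over cells and the dotted line is 1 TPM. Drd1 in D1 MSN lies in a narrow high band of 36 cells with 4 cells below it, Drd2 in D2 MSN is spread from 0 to 459 TPM, and Drd5 is high in the 2 cholinergic interneurons.

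In the subtype sorted on the other reporter, both receptors were near 0. Drd1 averaged 0.455 TPM in D2 MSN, which gave D1 MSN a log2 fold of 7.07 over them (of mean TPM plus 1), with 7.04 on FACS051_5 and 7.03 on FACS086_4. Drd2 averaged 0.171 TPM in D1 MSN, a log2 fold of -5.45, with -5.07 on FACS051_5. No fold is given for Drd2 on FACS086_4, where all 21 D1 MSN were listed at 0. The folds depend on the pseudocount, and with 0.1 or 10 TPM in place of 1 TPM they were 8.46 or 4.29 for Drd1 and -7.53 or -2.56 for Drd2.

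The residual levels had different shapes. Drd1 was above 0 in 25 of 38 D2 MSN, of which 22 lay at 1 TPM or below and the highest was at 4.05 TPM, so over all 80 cells no Drd1 value fell between 4.05 and 53.7 TPM. Drd2 was listed at 0 in 38 of 40 D1 MSN. The other D1 markers differed in this. Pdyn was above 0 in 15 D2 MSN with a highest value of 1.32 TPM, and Slc35d3 in 6 with a highest value of 0.550 TPM, and Isl1 in 3 with 1.79 TPM. Ebf1 was above 0 in 37 D2 MSN, up to 3.13 TPM. Tac1 and Sfxn1 reached high values, Tac1 with 6 D2 MSN above 5 TPM and up to 1218 TPM, and Sfxn1 with 17 above 5 TPM and up to 219 TPM. As a percentage of the mean in the own subtype, the mean in the other subtype was 0.234% for Drd1, 0.140% for Pdyn, 0.116% for Isl1, 0.0831% for Slc35d3, 4.70% for Tac1, 3.42% for Sfxn1 and 4.88% for Ebf1. In the other direction it was 0.341% for Drd2, 0.117% for the adenosine receptor gene Adora2a and 0.963% for the enkephalin precursor Penk. It was 0.0693% for the orphan receptor Gpr6, 1.54% for the ecto-nucleotidase Nt5e and 13.6% for the transcription factor Sp9. Gpr52 was listed at 0 in all 40 D1 MSN. The D1 MSN means of Drd2, Penk and Sp9 rested largely on the cell in C06 of FACS051_5. It held 84.2% of the summed Drd2 of the D1 MSN and 76.7% of their summed Penk. Its Sp9 was their highest, at 30.4 TPM beside a mean of 1.27 TPM.

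The 2 cholinergic interneurons carried Drd2 together with Drd5. In wells A08 and B02 of FACS051_5, Drd2 had levels of 97.2 and 79.5 TPM, above the median of the D2 MSN and below their highest values. The levels of Drd5 were 41.4 TPM in A08 and 108 TPM in B02. Among the 78 MSN, Drd5 was listed at 0 in all 38 D2 MSN and in 39 of 40 D1 MSN, and the other D1 MSN (B12 of FACS051_5) had 0.126 TPM. Drd1 was at 3.64 and 0.834 TPM in A08 and B02. The indirect pathway markers Adora2a and Gpr6 were listed at 0 in both interneurons, and Tac1 was too. Both also had more genes found than any MSN, with 10912 and 10251, and the part of this in their receptor levels was not tested.

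Few cells held both receptors. At more than 1 TPM of each, 5 of 80 cells did (6.25%, 2.06% to 13.99%), while 37 held Drd1 only, 25 held Drd2 only and 13 held neither. The count depended on the limit. It was 25 cells above 0 TPM, 1 cell above 5 TPM and 0 cells above 10 TPM, and in 23 of those 25 the cell was a Drd2-EGFP cell. Of the 5 cells, 4 came from plate FACS051_5, and none was D04 or B02 of the D1 MSN, so the count was 5 without them.

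In each of the 5 cells 1 receptor was the higher, by 3.73 to 51.7 times. In the D1 MSN in C06 of FACS051_5, Drd1 was at 297 TPM and Drd2 at 5.74 TPM. This cell also carried markers of either subtype, with Tac1 at 361 TPM and Slc35d3 at 192 TPM beside Penk at 3676 TPM and the transcription factor Sp9 at 30.4 TPM, whereas Adora2a was at 0.168 TPM and Gpr6, Gpr52 and Pdyn were listed at 0. Its Penk was the highest of all D1 MSN, whose median was 11.4 TPM, its TdTomato fluorescence was 1649, and its EGFP fluorescence was 51, beside a median of 50 over all D1 MSN. In the D1 MSN in B12, Drd1 was at 4.02 TPM and Drd2 at 1.08 TPM, the smallest ratio of the 5, and Penk was at 4.06 TPM.

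The D2 MSN with both transcripts carried most of the other D2 markers. In C02 of FACS051_5, Drd2 was at 26.7 TPM and Drd1 at 4.05 TPM, Penk at 27969 TPM and Tac1 at 4.63 TPM, and all 6 D2 markers were above 1 TPM. In C03 of FACS086_4, Drd2 was at 12.6 TPM and Drd1 at 1.31 TPM, with Penk at 13859 TPM and 5 of the 6 D2 markers above 1 TPM. Low levels of D1 markers were found too, with 3 of 6 above 1 TPM in C02 (at most 4.63 TPM) and 4 of 6 in C03 (at most 1.63 TPM). C02 and C03 were the only D2 MSN above 1 TPM of Pdyn, at 1.11 and 1.32 TPM. The remaining cell with both transcripts was the cholinergic interneuron in A08. No doublet caller was run on these 80 sorted cells. The genes found in the 5 cells, from 2871 in C06 to 6590 in C02 among the MSN, lay within the range of the other MSN.

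**Figure D2:**
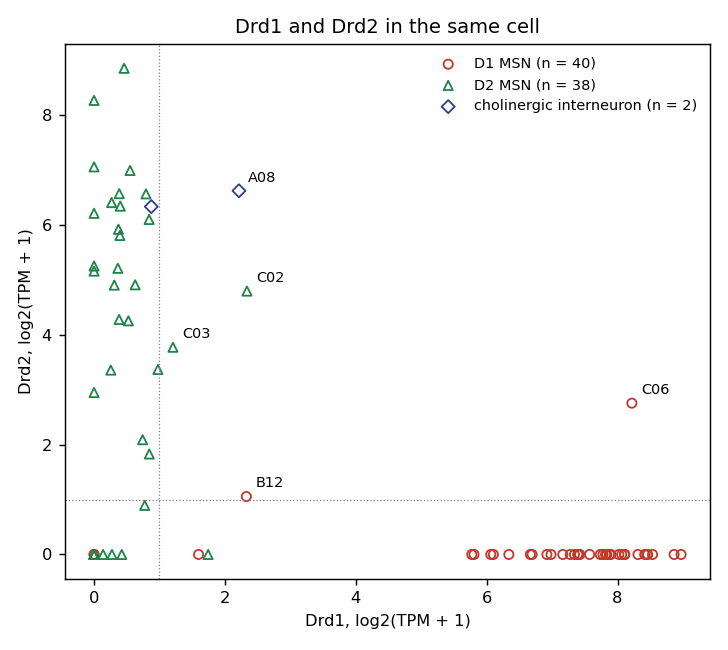
Drd1 (x axis) against Drd2 (y axis), both as log2(TPM + 1), in 80 cells; dotted lines mark 1 TPM, and the wells of the 5 cells above both lines are named. D1 MSN lie along the x axis and D2 MSN along the y axis. The D1 MSN in C06, at 297 TPM of Drd1 and 5.74 TPM of Drd2, lies on the right and low on the y axis, above the 1 TPM line.

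D2 MSN in which Drd2 was listed at 0 or under 1 TPM still carried other transcripts of the indirect pathway. Of these 12 cells, all 12 had Penk above 10 TPM (196 to 14546 TPM, median 7477), 9 had Adora2a and 8 had the orphan receptor Gpr6 above 1 TPM, and 11 had at least 1 of Adora2a and Gpr6 above it. The exception, in C06 of FACS086_4, had Penk at 10507 TPM and Sp9 at 50.9 TPM. Penk above 1 TPM does not by itself mark a cell as D2 MSN, since all 40 D1 MSN passed that limit too. The level of Penk differed more, with a median of 11.4 TPM in D1 MSN. Their highest value was 3676 TPM (C06 of FACS051_5) and the next was 500 TPM. Of the 12 cells, only A12 of FACS086_9 (196 TPM) lay below 500 TPM. Of the 5 D2 markers other than Penk, each of the 12 cells had 1 to 4 above 1 TPM (median 2), and Drd1 reached at most 2.35 TPM. Other D1 markers were high in some of the 12 cells. Tac1 was at 1218 TPM in A12 of FACS086_9 (Penk 196 TPM) and at 192 TPM in C09 of FACS086_4. Sfxn1 was at 219 TPM in A12 of FACS051_5. Such values were also seen in D2 MSN with Drd2, with Tac1 at 1082 TPM in C05 of FACS086_4 and Sfxn1 at 182 TPM in A03 of FACS051_5. Genes found ran from 1215 to 6279 in the 12 cells (median 4123) and from 1802 to 7942 in the other 26 D2 MSN (median 5717). Of the 12 cells, 10 came from FACS086_4 and FACS086_9. The part of genes found and of plate in the missing Drd2 was not tested. EGFP fluorescence of the 12 cells ran from 673 to 1699 with a median of 892, beside 502 to 1765 with a median of 836.5 in the other 26 D2 MSN.

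The orphan receptor Gpr52 and the ecto-nucleotidase Nt5e were the markers seldom found where Drd2 was not. Gpr52 was above 1 TPM in 17 of 38 D2 MSN, of which 1 (1.06 TPM) was among the 12 cells. Nt5e was above 1 TPM in 13 D2 MSN, of which 1 was among the 12. Gpr52 varied between plates as Drd2 did, with 11 of 16 D2 MSN above 1 TPM on FACS051_5, 6 of 19 on FACS086_4 and 0 of 3 on FACS086_9. The part of plate and of genes found in these counts was not tested. Conversely, high Drd2 did not go with every marker. In the cell with the highest Drd2 (459 TPM, A02 of FACS086_4), Penk was at 12539 TPM, Gpr6 at 111 TPM and Gpr52 at 261 TPM, while Adora2a was listed at 0. The cell in D12 of the same plate had Drd2 at 132 TPM with Penk at 1580 TPM and the 5 other markers listed at 0, and 1802 genes found.

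**Figure D3:**
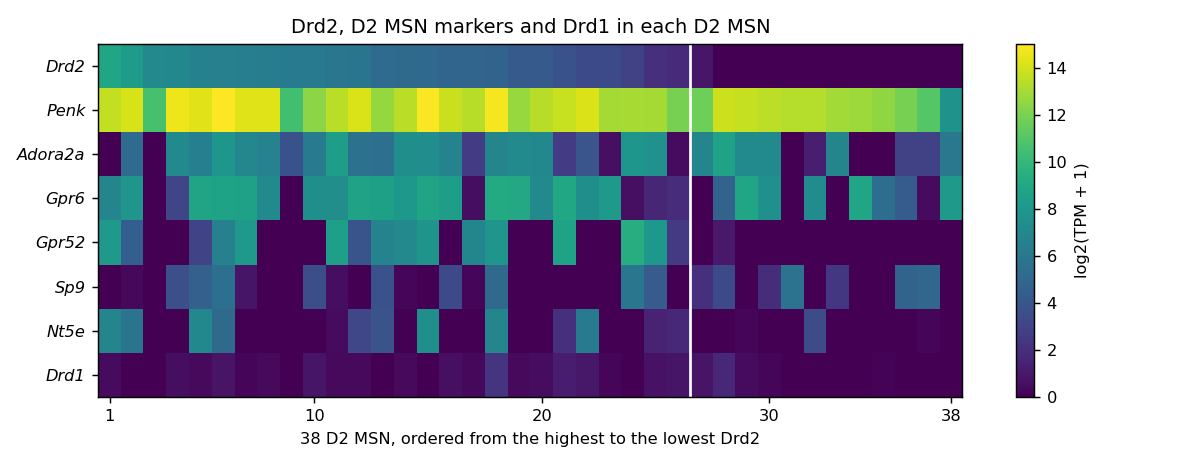
Heat map of Drd2, the 6 D2 markers and Drd1, as log2(TPM + 1) on the colour scale, in 38 D2 MSN ordered from the highest to the lowest Drd2 (x axis); the white line divides the 26 cells above 1 TPM of Drd2 from the other 12. Penk stays high on both sides of the line, Adora2a and Gpr6 are found in most cells of either side, and Gpr52 is above 1 TPM in 1 of the 12 cells on the right, at 1.06 TPM.

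The brightness of the reporter was only loosely related to the level of its receptor. TdTomato fluorescence of D1 MSN ran from 1001 over a median of 2634.5 to 4451 arbitrary units, and its log2 correlated with log2(TPM + 1) of Drd1 at Pearson r = 0.35 and Spearman rho = 0.08 (n = 40 cells, which share plates and differ in genes found). Within plates, r was 0.31 on FACS051_5 (n = 18) and 0.66 on FACS086_4 (n = 21). The latter rested on the cell in B02, without which it was 0.25, and without B02 and D04 the pooled r was 0.12. With the plate means taken out of both measures, and B02 and D04 kept, the pooled r was 0.44. Of the 5 brightest D1 MSN, all from FACS086_4, Drd1 lay between 120 and 275 TPM. Among the 5 dimmest, all from FACS051_5, it lay at 2.03 TPM in D04, at 65.8 TPM in A05 and between 212 and 370 TPM in the other three. Plates differed in brightness, with medians of 2146.5 on FACS051_5 and 3343 on FACS086_4, in the order opposite to their mean TPM of Drd1. The mean log2(TPM + 1) of Drd1 was 6.73 on FACS051_5 and 7.01 on FACS086_4, in the same order as brightness.

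For EGFP and Drd2 the relation had the opposite sign. EGFP fluorescence of D2 MSN correlated with Drd2 at r = -0.34 and rho = -0.34 (n = 38), with -0.31 on FACS051_5 (n = 16) and -0.15 on FACS086_4 (n = 19). With the plate means taken out of both measures r was -0.20, and without the 3 cells of FACS086_9 it was -0.24. The 5 dimmest cells had Drd2 between 59.4 and 306 TPM, whereas of the 5 brightest 3 were listed at 0, 1 was at 2.55 TPM and the brightest of all (EGFP 1765) was at 72.9 TPM. The brighter D2 MSN thus did not hold more Drd2 transcript. The number of genes found also moved with these values. It correlated with Drd1 in D1 MSN at r = 0.51 (rho = 0.23), which was 0.22 without B02 and D04 and, on FACS086_4, turned from 0.74 to -0.21 when B02 was left out. With Drd2 in D2 MSN it correlated at r = 0.32 (rho = 0.31), with 0.57 on FACS051_5 and -0.07 on FACS086_4.

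**Figure D4:**
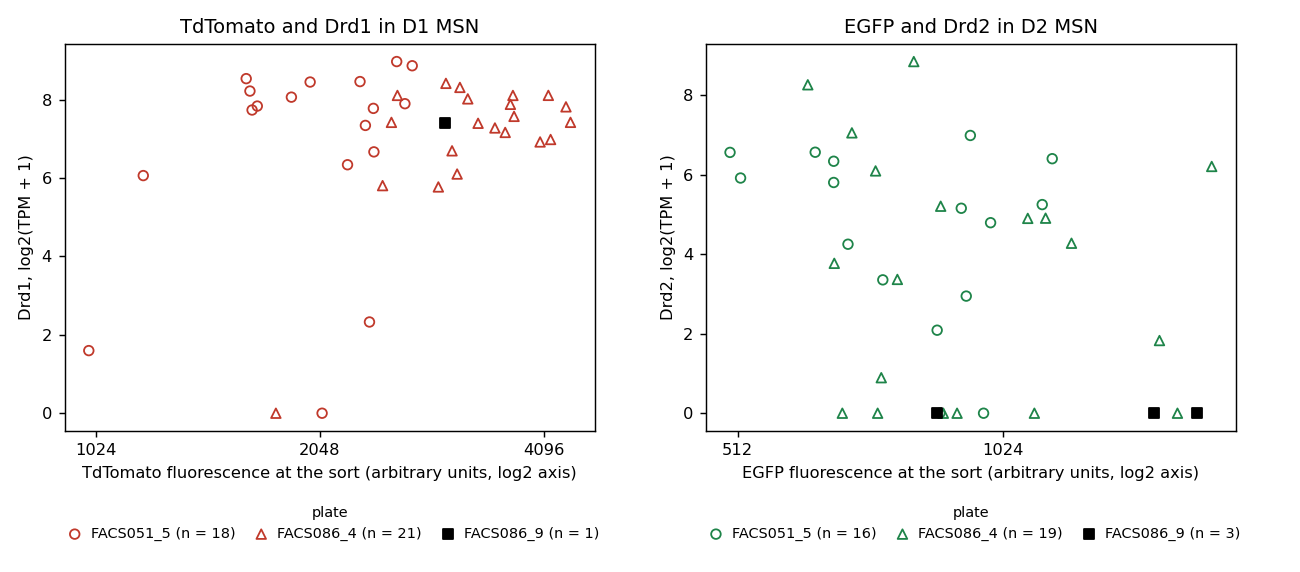
Fluorescence recorded at the sort (x axis, arbitrary units on a log2 axis) against the receptor transcript (y axis, log2(TPM + 1)) for TdTomato and Drd1 in 40 D1 MSN (left) and EGFP and Drd2 in 38 D2 MSN (right); each point is a cell and its shape gives the plate. Most D1 MSN stay in a flat high band at every brightness, and D2 MSN listed at 0 for Drd2 are found from 673 to 1699 units of EGFP.

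The transcripts whose pattern over the 78 MSN was most like that of each receptor were, apart from Gnas, markers fixed for the same subtype, which the sort already separates. Among 12063 genes above 1 TPM in at least 10 MSN, those with the highest Pearson r with Drd1 (log2 scale) were Tac1 (0.86), the mitochondrial carrier Sfxn1 (0.82), Slc35d3 (0.65), the transcription factor Ebf1 (0.62) and Pdyn (0.57). For Drd2 they were Penk (0.70), Gpr6 (0.63), Gpr52 (0.61), Adora2a (0.59) and Gnas (0.57), the gene of the stimulatory G protein alpha subunit. Drd1 and Drd2 themselves correlated at -0.59.

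Within a subtype the lists were different. In the 40 D1 MSN (8641 genes), the genes most like Drd1 were the phosphodiesterase Pde10a (0.78), the neuronal splicing factor Rbfox3 (0.75), the phosphodiesterase Pde2a (0.74), the synaptic gene Cplx2 (0.72) and the neurexin Nrxn3 (0.72), none of them a D1 marker. These values rested in part on D04 and B02, without which they lay between 0.52 and 0.65, and the Spearman rho of Pde10a was 0.23. They are also the highest of 8641 r values, so lower r for the fixed D1 markers does not set those apart. Among the D1 markers, r with Drd1 was 0.65 for Tac1 and 0.52 for Sfxn1, and it was 0.34 for Ebf1, 0.21 for Slc35d3, 0.15 for Isl1 and 0.13 for Pdyn. Without D04 and B02, r was 0.33 for Tac1, 0.23 for Ebf1 and 0.18 for Sfxn1, and for the other three it lay between -0.04 and 0.03. The rho over all 40 cells was 0.39 for Tac1 and 0.21 for Sfxn1. Pdyn was above 1 TPM in 22 of 40 D1 MSN and listed at 0 in the 2 cells highest in Drd1.

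In the 38 D2 MSN (7251 genes), the genes most like Drd2 were the tetraspanin Tspan13 (0.70), Trim35 (0.63), Gnb5 (0.63), whose product is the G protein beta subunit that pairs with the striatal regulator RGS9, Lancl1 (0.61) and the ribosomal protein gene Rpl19 (0.60). The value of Tspan13 was 0.76 on FACS051_5 and 0.60 on FACS086_4, and its rho over all D2 MSN was 0.70. For the D2 markers r was 0.44 for Gpr52, 0.41 for Nt5e, 0.36 for Penk, 0.25 for Gpr6, 0.17 for Adora2a and -0.12 for Sp9. The 5 genes above were picked as the highest of 7251 r values, so lower r for fixed markers does not set those apart. How high the top of so many r values lies without any relation was not tested. Penk had 0.61 on FACS051_5 and -0.11 on FACS086_4, so its relation to Drd2 differed in sign between plates. These correlations are over cells that share plates and differ in genes found.

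The machinery downstream of the receptors had similar mean levels in D1 and D2 MSN for 25 of 31 genes, within 1 on the log2 scale. Of 37 genes on a dopamine signalling list, 34 had a row and 31 averaged at least 1 TPM over the MSN. Taking D1 MSN over D2 MSN, 4 of them had a log2 fold above 1 (12.9%), beside 21.1% of all 15671 genes with that mean, and 2 had one below -1 (6.45%), beside 14.8% of all genes. The median log2 fold was -0.15 for the list and 0.09 for all these genes. In either direction 6 list genes passed a log2 fold of 1, beside 35.8% of all genes, and 6 did without D04 and B02. The count was 2 (6.45%) with a pseudocount of 10 TPM, beside 7.96% of all genes, and 2 with the difference of mean log2 values, beside 6.0%. The list thus lay near the share of all genes under those settings. With the highest MSN of each gene left out, 3 list genes passed, beside 25.0% of all genes. A total of 20 list genes passed 1 TPM in 50% or more of the cells in both subtypes.

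Of the G protein genes, Gnas stood out. It averaged 98.6 TPM in D2 MSN (22 of 38 cells above 1 TPM) and 12.7 TPM in D1 MSN (6 of 40), a log2 fold of -2.86, with -2.61 on FACS051_5 and -4.70 on FACS086_4, and it was at 1544 and 2450 TPM in the cholinergic interneurons. Gnal, which encodes the Golf alpha subunit to which striatal D1 receptors couple, was level, with means of 130 and 144 TPM in D1 and D2 MSN (log2 fold -0.15). The inhibitory subunit gene Gnai1 was at 32.3 and 14.4 TPM (1.11), and Gnai3 at 2.20 and 7.48 TPM (-1.41). Both were found in a minority of D2 MSN, with 12 and 6 of 38 cells above 1 TPM. Without the highest cell of each gene the log2 fold was -2.56 for Gnas, 0.76 for Gnai1 (D1 cell at 313 TPM) and -0.79 for Gnai3 (D2 cell at 117 TPM). In this fold of means the last 2 thus rested on 1 cell for passing 1. As a difference of mean log2 values, Gnas was at -3.09, Gnai1 at 1.12 and Gnai3 at -0.23.

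Downstream of the G proteins, the striatal adenylyl cyclase Adcy5 was at 80.7 TPM in D1 against 62.5 TPM in D2 MSN (log2 fold 0.36), and Pde10a, which breaks down cyclic nucleotides, at 427 and 536 TPM (-0.33). Ppp1r1b, the gene of the phosphoprotein DARPP-32 that integrates dopamine signals, was at 1583 and 1754 TPM (-0.15) and above 1 TPM in all 78 MSN. The list genes above a log2 fold of 1 other than Gnai1 were found in few cells. Adrbk1, the receptor kinase GRK2, was at 14.8 and 1.04 TPM (11 and 4 cells above 1 TPM, log2 fold 2.95), the receptor chaperone Dnajc14 at 7.92 and 0.910 TPM (7 and 1 cells, 2.22), and the arrestin Arrb2 at 3.63 and 1.14 TPM (5 and 3 cells, 1.12). Single cells held much of these means. Without its highest cell, a D1 MSN in each case, Adrbk1 averaged 7.41 TPM in D1 MSN (cell at 303 TPM, log2 fold 2.04), Dnajc14 5.36 TPM (cell at 108 TPM, 1.74) and Arrb2 2.07 TPM (cell at 64.5 TPM, 0.52). The only D2 MSN above 1 TPM of Dnajc14 was at 33.996 TPM. On both large plates alike, Adrbk1 was the only list gene above 1 and Gnas the only one below -1. As a difference of mean log2 values over all MSN, Adrbk1 was at 0.87, Dnajc14 at 0.67 and Arrb2 at 0.23.

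**Figure D5:**
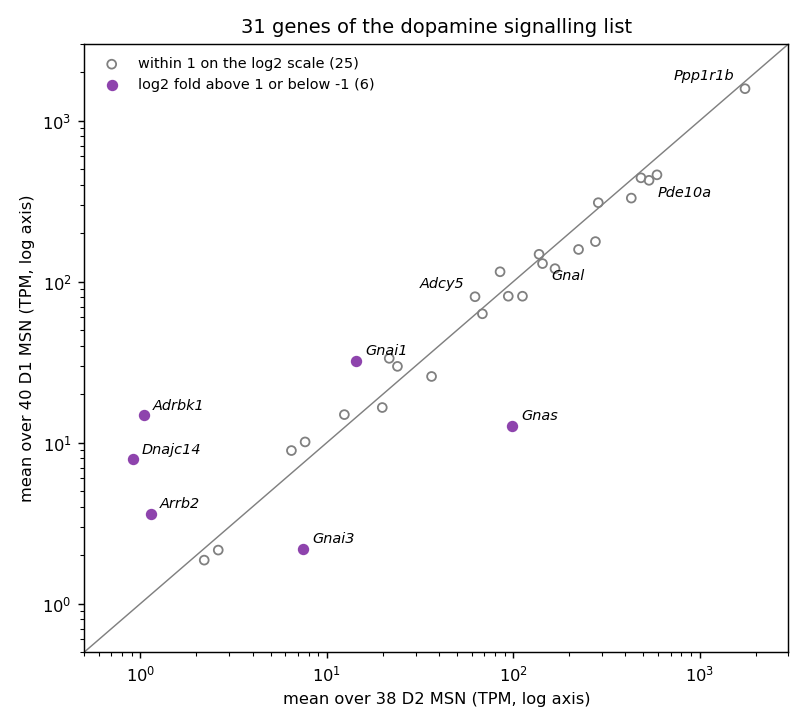
Mean TPM over 38 D2 MSN (x axis) and 40 D1 MSN (y axis), both on log axes, for the 31 genes of the dopamine signalling list that averaged at least 1 TPM; the line marks equal means, and the 6 genes past a log2 fold of 1 of mean TPM plus 1 are filled and named, as are 4 known effectors. Most genes lie close to the line, Gnas lies below it at 98.6 and 12.7 TPM, and Adrbk1 above it at 1.04 and 14.8 TPM.

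Some genes of dopamine synthesis, storage and breakdown on the list were sparse in MSN. The dopamine-synthesizing decarboxylase Ddc averaged 1.86 TPM in D1 MSN against 2.20 TPM in D2 MSN, and the vesicular transporter Slc18a2 averaged 0.307 against 1.65 TPM. The monoamine oxidase gene Maob was above 1 TPM in 1 cell of each subtype and at 247 and 282 TPM in the cholinergic interneurons. Drd4, Th and Slc6a3 were not analysed here.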

How the data were processed

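Each sample was 1 cell. The authors deposited TPM per gene and cell. Per the labels, the processing notes name bcl2fastq 2.18, STAR 2.5.0, FastQC 0.11.5, featureCounts 1.5.1 and DESeq2 1.14.1 with mm10/GRCm38, and how the TPM were made is not given in the sources used here. The listed TPM of a cell added up to 506588 to 958040. Reads were not counted anew.

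Groups came from the labels. Members, lists and the Chat limit of 100 TPM were chosen with earlier results of these data known. No test was made, since no animal is named. A cell was counted above 1 TPM, folds are log2 of mean TPM plus 1, and correlations use log2 values. Named genes were the receptors, the fixed markers and list genes, and the 5 genes of highest r over MSN and within each subtype. Cells, wells or genes singled out beyond that were chosen after their values were seen. Of 127 alternatives planned, 91 were run, and 15 were added after seeing the data. Gene positions are from GENCODE M21. The folds and the ranking of genes by r were checked on these data with values raised or planted so that the answer was known. The other steps were not checked in this way. Values were computed in Python 3.11.15 (scipy 1.17.1 for intervals and correlations, pandas 2.3.3 and numpy 2.4.6), and plots were drawn with matplotlib 3.10.9.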

Additional observations from a re-analysis of the deposited data

How the results depend on the processing

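Of 106 alternatives run, 73 moved a result by less than its spread (the SD between the large plates, the exact interval of a share, or 1.5 times for a count), 31 moved it further and 2 turned its sign. The 31 include 10 for the Drd1 fold, whose SD between plates was 0.0096, and 9 for the Drd2 fold, which had no spread, so that any shift was counted. The share of D1 MSN above 1 TPM of Drd1 stayed between 90.0% and 97.4%, and that of D2 MSN above 1 TPM of Drd2 between 54.5% and 74.3%. The log2 fold of Drd1 (7.07) was 8.46 and 4.29 with pseudocounts of 0.1 and 10 TPM, 6.47 as a difference of mean log2 values, 7.23 with TPM rescaled to the listed genes, 7.12 without FACS086_4, 7.04 without FACS086_9, 7.08 without cells with fewer than 2000 genes found, 7.11 without D04, 7.15 without D04 and B02, and 6.99 with the cholinergic interneurons kept. That of Drd2 (-5.45), for which 1 large plate gives a fold, was -7.53, -2.56, -3.54, -5.66, -4.85, -5.56 and -5.42 under the same first 7 settings, -5.44 without D04 and -5.50 with the interneurons kept. Co-detected cells (5) numbered 25 above 0, 1 above 5, 0 above 10 TPM and 1 without FACS051_5. The correlation of TdTomato with Drd1 (0.35) was 0.081 as Spearman rho and 0.66 on FACS086_4, and that of EGFP with Drd2 (-0.34) was -0.15 on FACS086_4 and -0.20 with plate means taken out. That of genes found with Drd1 (0.51) was 0.17 without cells listed at 0 and -0.21 on FACS086_4 without B02, and with Drd2 (0.32) it was -0.068 on FACS086_4. The count of dopamine list genes (6, beside 35.8% of all genes) was 2 with a pseudocount of 10 TPM (beside 7.96%), 2 from mean log2 values (beside 6.0%) and 3 without the highest MSN of each gene (beside 25.0%). The cause of these moves was not tested.

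Alternatives for Drd3 (30) were not run because Drd3 was not analysed here, the Drd2 fold without FACS051_5 was not given because Drd2 was then listed at 0 in all D1 MSN, and 5 alternatives left every cell of their result as it was. The depth of each cell is unknown from TPM, so an absent transcript and a missed one cannot be told apart. The labels do not tie cells to animals, so neither spread nor interval covers animals.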
